A study of Mus musculus with 2 samples.

Results

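The 44 genes described here carry fatty acids through the muscle cell, from their release and uptake at the cell surface to storage in lipid droplets and oxidation in the mitochondrion. They were chosen by name, as annotated genes of the pathway, and the reads of every transcript model of a gene were summed in each library. All 44 genes had reads in both libraries, among 14704 annotated genes with a read in either library and 11160 with a read in both. RNA of the gastrocnemius, a calf muscle made largely of fast fibres in mice, was read as whole molecules by long-read sequencing. The muscle came from male B6CASTF1/J mice, F1 hybrids of the C57BL/6 and CAST strains, at postnatal day 14, without treatment or engineered allele named in the labels. There is 1 group, of 2 biological replicates with 2 µg of RNA apiece, and hence no contrast between conditions. The labels give 1 donor identifier for both replicates and mention more than 1 male. They do not say if a replicate is an animal or a pool, so an SD given here measures how far these libraries lie apart, which may in part be technical.

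Lipoprotein lipase frees fatty acids from circulating triglyceride, the receptor CD36 and the transport proteins take them into the cell, and fatty acid binding proteins carry them through the cytosol. Acyl-CoA synthetases activate them, the carnitine palmitoyltransferases pass long chains into the mitochondrion, and malonyl-CoA inhibits that entry. Each turn of beta-oxidation then runs through an acyl-CoA dehydrogenase, a hydratase, a hydroxyacyl-CoA dehydrogenase and a thiolase, and the dehydrogenases hand their electrons to the respiratory chain through the electron transfer flavoprotein. Muscle also keeps fatty acids as triglyceride in lipid droplets, which perilipins coat and lipases open.

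Leaving out spike-in RNAs, there were 1094607 reads in replicate 1 and 626289 in replicate 2. A count of 0 allows up to 3 reads, which is 2.74 CPM (reads per 1000000 library reads) in replicate 1 and 4.79 CPM in replicate 2. Intervals and these limits cover counting error only, since the reads carry no molecular identifiers. A long read is meant to cover a transcript whole, so CPM is not divided by transcript length. The read share did move with length between the libraries: over all genes tested, the median log2 ratio of replicate 1 over replicate 2 was -0.65 in the shortest of 10 equal classes of transcript length and 0.50 in the longest. Markers of fast muscle fibres summed to 304225 CPM in replicate 1 and 284487 CPM in replicate 2, and all 7 were found. Markers of slow or oxidative fibres summed to 2379 CPM in replicate 1 and 2815 CPM in replicate 2. In a bulk tissue, fewer cells of a type and less RNA per cell cannot be told apart.

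Together the 44 genes took 9631 reads in replicate 1 and 4451 in replicate 2. That is 0.880% of replicate 1 (exact Clopper-Pearson 95% interval 0.862% to 0.898%) and 0.711% of replicate 2 (0.690% to 0.732%), a mean of 0.795% ± 0.120 (SD, n = 2, as for shares and levels below). The 7 uptake genes held 28.3% ± 5.98 of the members' reads and the 9 genes of the later steps of beta-oxidation held 25.3% ± 3.00. The 5 acyl-CoA dehydrogenases followed with 17.3% ± 1.99 and the 3 electron transfer genes with 11.3% ± 1.03. The 5 genes of mitochondrial entry held 6.80% ± 1.14, storage and lipolysis (6 genes) 4.89% ± 1.71, the 2 thioesterases 2.37% ± 1.54, activation (5 genes) 2.14% ± 0.133 and the 2 uncoupling proteins 1.61% ± 0.566. Of the 44 genes, 36 reached a mean of 10 CPM, 26 reached 100 CPM and 2, Fabp3 and Acadvl, reached 500 CPM. Over all annotated genes 1056 reached 100 CPM and 187 reached 500 CPM.

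**Figure D1:**
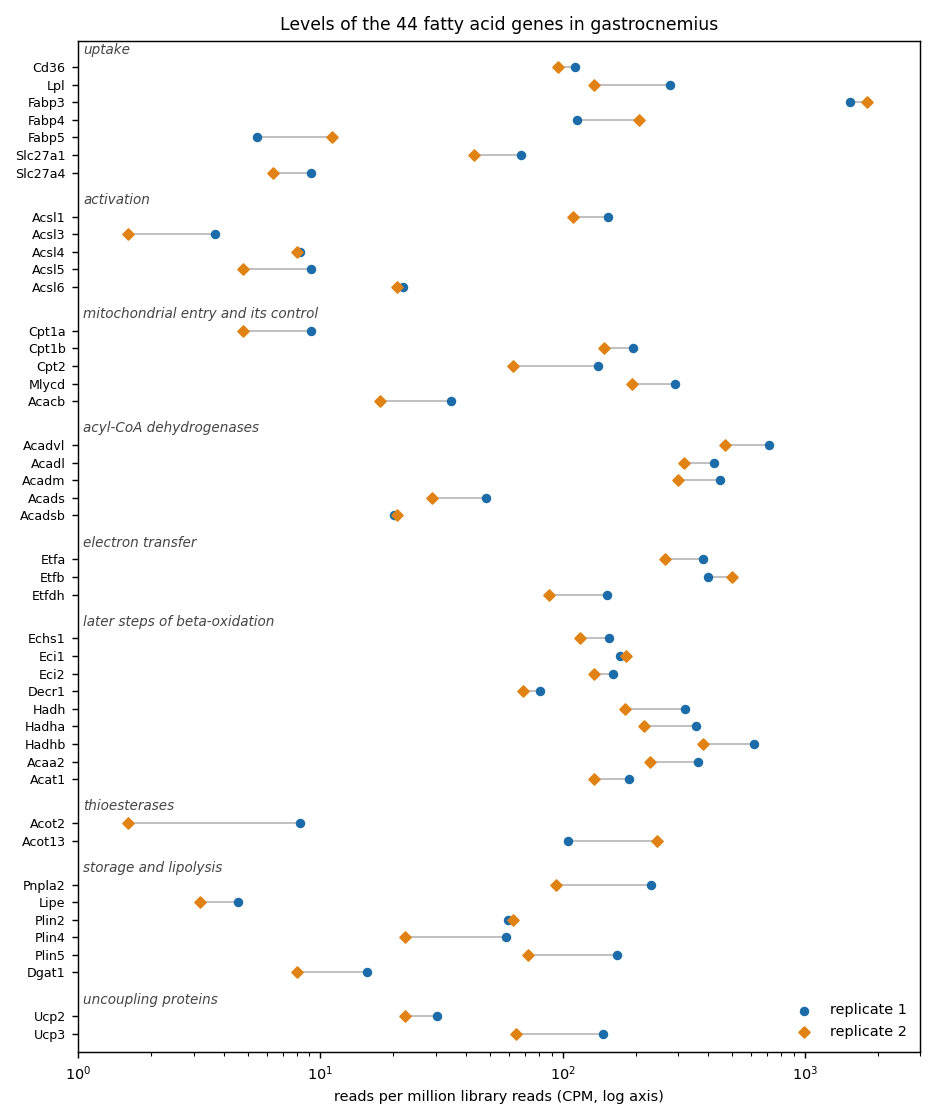
Level of each member in CPM on a log axis, by role, with a circle for replicate 1 and a diamond for replicate 2 joined by a line. Fabp3 stands alone above 1000 CPM, at 1531 CPM in replicate 1 and 1812 CPM in replicate 2, and most enzymes of the mitochondrial pathway lie between 100 and 500 CPM, while Acsl3, Acot2 and Lipe lie at the low end.

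Fabp3 (chr4:130308595-130315463, plus strand), the fatty acid binding protein of heart and muscle, was the most abundant of the 44 genes in both libraries. It stood at 1531 CPM in replicate 1 and 1812 CPM in replicate 2 and ranked 51st among all genes (1672 ± 199 CPM, SD, n = 2). Fabp4, the form known from adipocytes and capillary endothelium, stood at 114 CPM in replicate 1 and 208 CPM in replicate 2. Fabp5, the epidermal form, stood at 5.48 CPM (6 reads) and 11.2 CPM (7 reads) in replicates 1 and 2. Of the reads of these 3 genes Fabp3 held 91.0% ± 2.49 and Fabp4 8.57% ± 2.34, so the muscle form led in both libraries. Lpl, the lipase that acts on circulating lipoproteins, was at 277 CPM in replicate 1 and 134 CPM in replicate 2. Cd36, the fatty acid receptor of the plasma membrane, was at 112 CPM in replicate 1 and 95.8 CPM in replicate 2. Slc27a1 is the transport protein known from muscle, and it held 87.6% ± 0.706 of the reads of the pair Slc27a1 and Slc27a4 (67.6 CPM and 9.14 CPM in replicate 1, 43.1 CPM and 6.39 CPM in replicate 2). Their annotated relatives Slc27a2, Slc27a5 and Slc27a6, and the liver and intestinal binding proteins Fabp1 and Fabp2, had 0 reads in both libraries.

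Several uptake genes are also expressed outside the muscle fibre, and markers of those cells are set beside them here. Adipocyte markers summed to 1.83 CPM in replicate 1 and 49.5 CPM in replicate 2, with 4 of 7 detected and Retn, Lep and Adrb3 at 0. Adipoq, the adipocyte hormone, had 0 reads in replicate 1 and 6 in replicate 2, and Cfd, also secreted by adipocytes, had 2 and 17. Fabp4 was the higher in the same library, replicate 2. On annotated models alone it had 31 reads in replicate 1 and 17 in replicate 2 and was not called. The part of adipocytes or endothelium in its level was not tested. The sum of the endothelial markers went the other way from Fabp4, with 436 CPM in replicate 1 and 305 CPM in replicate 2. Of the 7 genes tested, 1 was called, Cldn5, at 189 CPM in replicate 1 and 102 CPM in replicate 2. Without being called, Cdh5, Pecam1, Tie1 and Gpihbp1 were higher in replicate 1, and Egfl7 and Kdr in replicate 2, as Fabp4 was. Macrophage markers summed to 84.0 CPM and 81.4 CPM, and all 7 genes of each of these 2 lists were found. Fibroblast markers summed to 7609 CPM in replicate 1 and 3029 CPM in replicate 2, all 6 found. Of the 2 brown adipocyte markers, Ucp1 was at 0 and Cidea had 6 and 5 reads in replicates 1 and 2.

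Fabp3 was read almost only as its annotated model Fabp3-201, which held 99.1% ± 0.363 of the reads on complete models (those that are annotated, or that are spliced from start to end in a way the annotation does not list). Fabp4 was instead mostly read as partial molecules: 68 of 125 reads in replicate 1 and 83 of 130 in replicate 2 covered just the last 2 of the 4 exons of Fabp4-201, and 27 and 11 reads were the full model. The models of Fabp4, Cd36, Slc27a1, Acacb, Plin2, Plin4 and Plin5, which have under 50 complete reads in replicate 2, the exon-skipping model of Mlycd, and the partial or unspliced reads of Acadl and Acot13 were chosen for description after their values were seen. Cd36 began at several places, and Cd36-201 and Cd36-204, which differ in their start, have the same annotated coding bases. The first exon of Cd36-201 opened 35 of 84 complete reads in replicate 1 and 8 of 24 in replicate 2. The first exon of Cd36-204, which starts 14096 bases upstream and ends at the same splice donor as that of Cd36-202, opened 40 and 12 reads (47.6% in replicate 1, exact 95% interval 36.6% to 58.8%, and 50% in replicate 2, 29.1% to 70.9%). No start of Cd36 held a clear majority in either library. Slc27a1 was the most divided member, with 54 complete reads over 24 models in replicate 1 and 21 over 16 models in replicate 2.

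Activation rested mainly on Acsl1, the long-chain acyl-CoA synthetase known from muscle, fat and liver. It stood at 153 CPM in replicate 1 and 110 CPM in replicate 2 and took 77.0% ± 1.64 of the reads of the 5 synthetases. Acsl6, known chiefly from brain and muscle, came next at 21.9 CPM and 20.8 CPM, or 12.7% ± 2.21. Acsl4, which prefers arachidonic acid, was at 8.22 CPM and 7.98 CPM, and Acsl5 at 9.14 CPM and 4.79 CPM in replicates 1 and 2. Acsl3, the form of endoplasmic reticulum and lipid droplets, had 4 reads in replicate 1 and 1 in replicate 2, and the order of the last 3 could not be told at this depth.

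Acsl1 transcripts began mainly at a pair of first exons. Acsl1-201 starts with an exon of 194 bases at chr8:46471037-46471230 (mm10, plus strand). Acsl1-203 starts 19929 bases downstream, at chr8:46490966-46491161, and both first exons are noncoding, since the coding sequence opens in the shared second exon. Acsl1-201 had 66 of 125 complete reads in replicate 1 and 36 of 54 in replicate 2, and Acsl1-203 had 41 and 15. The shares, 59.7% ± 9.81 for Acsl1-201 and 30.3% ± 3.55 for Acsl1-203, put the upstream start ahead in both libraries. The windows that RefSeq gives for these starts (GRCm38.p6, 250 bases before to 50 after) are printed since they show the contrast between the promoters. Capitals mark matches on either strand to GGGCGG, the GC box, or to CAGCTG, an E-box of the kind that muscle factors of the MyoD family bind.
Acsl1 upstream promoter, chr8:46470787-46471086, plus strand: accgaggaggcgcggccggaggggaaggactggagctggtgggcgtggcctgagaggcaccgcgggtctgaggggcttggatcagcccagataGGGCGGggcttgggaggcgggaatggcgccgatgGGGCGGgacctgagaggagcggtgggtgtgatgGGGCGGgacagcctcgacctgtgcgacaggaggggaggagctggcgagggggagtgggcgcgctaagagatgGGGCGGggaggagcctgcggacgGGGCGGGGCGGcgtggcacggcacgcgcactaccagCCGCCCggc
Acsl1 downstream promoter, chr8:46490716-46491015, plus strand: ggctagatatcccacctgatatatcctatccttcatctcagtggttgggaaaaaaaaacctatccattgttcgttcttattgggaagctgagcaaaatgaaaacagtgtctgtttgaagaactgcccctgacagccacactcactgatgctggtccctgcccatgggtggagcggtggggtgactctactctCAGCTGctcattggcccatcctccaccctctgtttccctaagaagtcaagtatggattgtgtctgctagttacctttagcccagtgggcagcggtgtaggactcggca
The upstream window held 7 GC boxes, 2 of which overlap by 1 base, and no CAGCTG and was 74.0% G or C. The downstream window held no GC box and 1 CAGCTG and was 50% G or C, against a median of 52.7% over the 32851 windows of the table. GGGCGG occurs in 35.7% of those windows and CAGCTG in 16.3%, and a match describes the letters only.

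Promoter windows were found for 35 of the 44 members, 42 windows in all. GGGCGG was present in 29 of the 42, against 35.7% of all windows, and CAGCTG in 13, against 16.3%. The members' windows were richer in G or C, with a median of 60.8% against 52.7% over all windows. AGGTCA, the half-site of nuclear receptors such as the PPARs and the estrogen-related receptors, occurred in 11 of the 42 windows, which belong to 10 genes (Acacb, Acadm, Acadvl, Acsl6, Cd36, Cpt1a, Echs1, Plin2, Plin5 and Ucp3), and in 16.3% of all windows. Its direct repeat with 1 base between the copies, which holds the half-site, was in 0 of the 42 windows and in 0.0396% of all. TCAAGGTCA, which also holds the half-site, was in 1 window, of Acsl6, against 0.423% of all, and TATAAA was in 1, of Acacb, against 13.6%.

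Cpt1b, the muscle form of the outer-membrane carnitine palmitoyltransferase, was at 195 CPM in replicate 1 and 148 CPM in replicate 2. Cpt1a, the liver form, was at 9.14 CPM (10 reads) and 4.79 CPM (3 reads). Cpt1b therefore held 96.2% ± 0.961 of their reads and exceeded Cpt1a in both libraries. Cpt2, the inner-membrane partner, was at 140 CPM in replicate 1 and 62.3 CPM in replicate 2. Mlycd, the decarboxylase that removes malonyl-CoA, was at 291 CPM and 193 CPM. Acacb, the carboxylase that makes the malonyl-CoA that acts at the mitochondrion, was at 34.7 CPM and 17.6 CPM in replicates 1 and 2. Mlycd reads were 8.39 times those of Acacb in replicate 1 and 11 times in replicate 2. Acacb transcripts had a mean length of 8256 bases, and 4 of 38 and 2 of 11 of its reads were on annotated models. The Cpt1b locus on chromosome 15 overlaps the readthrough gene Gm44502, to which 4 and 1 reads were assigned, against 213 and 93 for Cpt1b in replicates 1 and 2.

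Mlycd was read mainly as Mlycd-201 (5 exons), which held 90.6% ± 1.26 of the complete reads. A model without exons 2 and 3, of 113 and 157 bases at chr8:119401481-119401593 and chr8:119402434-119402590 on the plus strand, had 13 of 307 reads in replicate 1 and 6 of 117 in replicate 2, or 4.68% ± 0.632. The 270 bases left out keep the reading frame, and the junction is shown with the bases that follow the first exon in capitals.
Mlycd-201, exon 1 to exon 2: gggccgcacgtccggGAAATGAACGGAGTG
Mlycd model without exons 2 and 3: gggccgcacgtccggGGCATTGTGAAGGAG

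Of the acyl-CoA dehydrogenases, each of which takes a range of chain lengths, those of very long, long and medium chains were abundant in both libraries. Acadvl (chr11:70010183-70015411, minus strand), which takes very long chains, was at 713 CPM in replicate 1 and 468 CPM in replicate 2 and held 42.3% ± 1.37 of the reads of the 5 genes. Acadm, for medium chains, was at 445 CPM and 299 CPM, and Acadl, for long chains, at 422 CPM and 316 CPM in replicates 1 and 2. Acadl and Acadm did not differ beyond their spread: their shares were 26.8% ± 1.65 and 26.7% ± 0.428. Acads, for short chains, was at 48.4 CPM and 28.7 CPM, and Acadsb, for short branched chains, at 20.1 CPM and 20.8 CPM, with 2.74% ± 0.281 and 1.53% ± 0.435 of the family. Each of the 3 abundant dehydrogenases was led by an annotated model with over 90% of the complete reads: Acadvl-202 with 93.7% ± 0.606, Acadl-201 with 97.4% ± 1.12 and Acadm-201 with 95.9% ± 1.55.

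Electrons leave these enzymes through the heterodimer of Etfa and Etfb and the oxidoreductase Etfdh. Etfa was at 381 CPM in replicate 1 and 265 CPM in replicate 2, and Etfb at 396 CPM and 501 CPM. The subunit ratio Etfa over Etfb was 0.961 in replicate 1 and 0.529 in replicate 2, a wider gap than that of the trifunctional subunits below. Their transcripts differ in length, with means of 1392 bases for Etfa and 891 bases for Etfb. Etfdh was at 153 CPM in replicate 1 and 87.8 CPM in replicate 2.

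Hadha and Hadhb, the alpha and beta subunits of the trifunctional protein that carries out the later steps on long chains, kept a steady ratio. Hadha was at 354 CPM in replicate 1 and 217 CPM in replicate 2, and Hadhb at 615 CPM and 380 CPM. Hadha reads were 0.577 of Hadhb reads in replicate 1 and 0.571 in replicate 2, although both genes had a higher share in replicate 1. The genes lie head to head on chromosome 5, with 85 bases between the annotated start of Hadha-205 (30155162, minus strand) and that of Hadhb-201 (30155248, plus strand). The RefSeq window of Hadhb is printed because it holds the whole shared interval, in capitals. It contained 4 GC boxes, was 60.7% G or C and held no CAGCTG.
Hadha-Hadhb promoter, chr5:30155003-30155302, GRCm38.p6, plus strand: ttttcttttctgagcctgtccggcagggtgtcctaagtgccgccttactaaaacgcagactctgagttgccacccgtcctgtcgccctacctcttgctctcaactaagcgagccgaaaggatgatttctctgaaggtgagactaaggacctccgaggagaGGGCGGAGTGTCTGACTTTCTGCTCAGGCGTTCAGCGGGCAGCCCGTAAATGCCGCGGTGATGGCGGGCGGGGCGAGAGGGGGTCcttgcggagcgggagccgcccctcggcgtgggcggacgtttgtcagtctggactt
Hadhb itself used a pair of splice donors in its first exon. Hadhb-201, whose first exon ends at 30155339, had 375 of 634 complete reads in replicate 1 and 147 of 231 in replicate 2 (61.4% ± 3.17). Hadhb-203, whose first exon ends 43 bases further on, had 232 and 71 (33.7% ± 4.14), and the coding sequence of both models is the same. Hadha was read as Hadha-205 in 95.0% ± 1.42 of complete reads.

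The other later-step enzymes lay below Hadhb in both libraries. Hadh, the hydroxyacyl-CoA dehydrogenase of shorter chains, was at 321 CPM in replicate 1 and 180 CPM in replicate 2. Acaa2, the mitochondrial thiolase, was at 363 CPM and 230 CPM, and Acat1, the thiolase of the final acetoacetyl-CoA, at 187 CPM and 134 CPM in replicates 1 and 2. Echs1, the short-chain hydratase, was at 155 CPM and 118 CPM. Unsaturated fatty acids need further enzymes to pass through the cycle. Eci1 and Eci2, the enoyl-CoA isomerases, were at 173 CPM and 161 CPM in replicate 1. In replicate 2 they were at 182 CPM and 134 CPM. Eci1 thus led in both libraries, with 54.7% ± 4.10 of the reads of the pair. The exact interval of its share included an even split in replicate 1 (46.5% to 57.0%) but not in replicate 2 (50.4% to 64.6%). Decr1, the dienoyl-CoA reductase, was at 80.4 CPM and 68.7 CPM in replicates 1 and 2.

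Eci2, on the minus strand of chromosome 13, was the most divided member among those with at least 50 complete reads in each library. Eci2-211 had 73 of 165 complete reads in replicate 1 and 28 of 74 in replicate 2 (41.0% ± 4.53), and Eci2-201, with a first exon of 452 bases in place of one of 131, had 38 and 21 (25.7% ± 3.78). An unannotated combination of known splice sites, whose second exon of 261 bases reaches 98 bases further upstream, had 19 and 11 (13.2% ± 2.37). Eci2-213 had 15 and 8 (9.95% ± 1.22). Eci2-213 uses an acceptor 10 bases further into the second exon than Eci2-211. The annotated coding sequence is 1173 bases in Eci2-211 and 1074 bases in Eci2-213 and Eci2-201. The end of the first exon and the start of the second are shown, with the 10 bases of the second exon of Eci2-211 that Eci2-213 lacks in capitals.
Eci2-211: ggtgtccgagTGTCCTGCAGgtcttcagat
Eci2-213: ggtgtccgaggtcttcagattacaagtggc

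**Figure D2:**
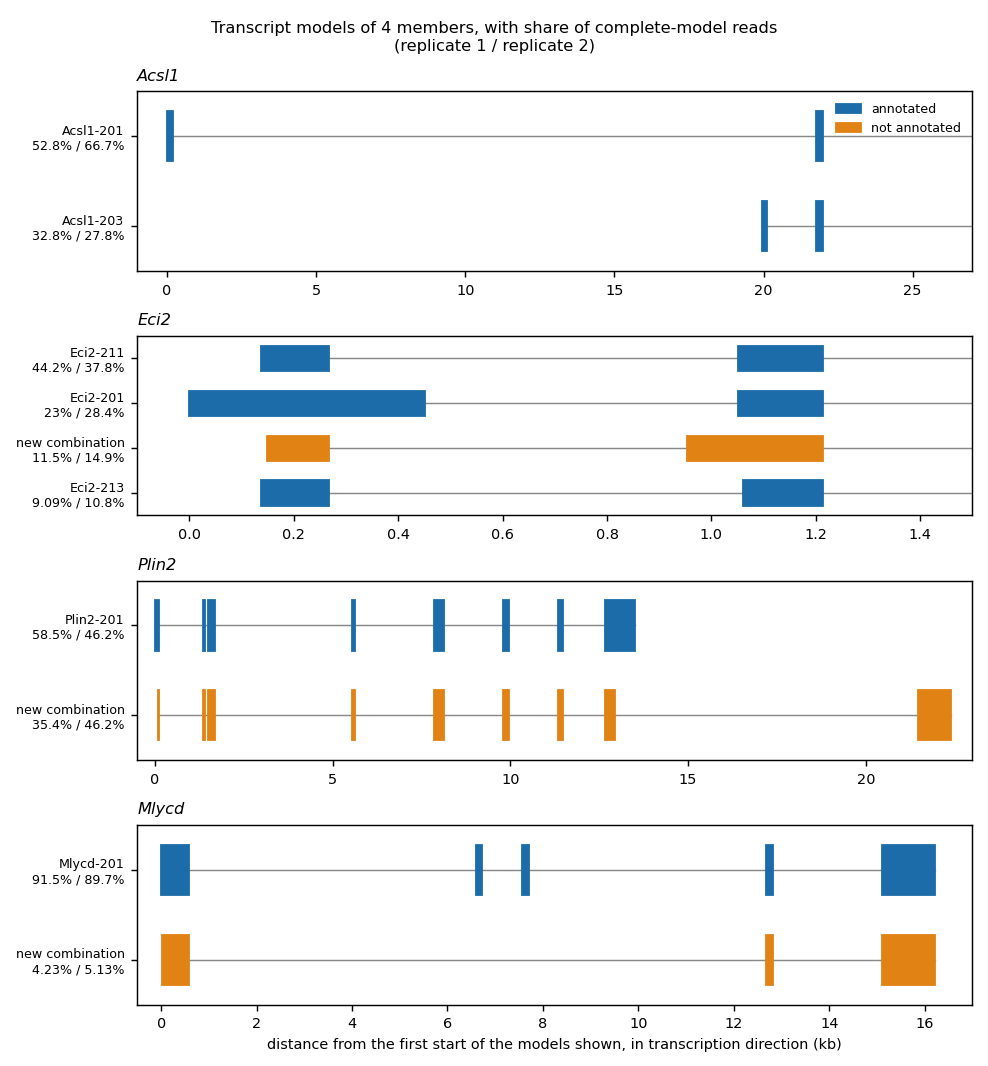
Exons of the leading transcript models of Acsl1, Eci2, Plin2 and Mlycd against distance in kb from the first start of the models shown, with the percent of complete-model reads in replicate 1 and replicate 2 beside each name; blue models are annotated and orange ones are not, and for Acsl1 and Eci2 the 5′ part alone is drawn. The models differ in the first exon in Acsl1, in the first exon or at the start of the second in Eci2, in the last exon in Plin2 and by 2 skipped exons in Mlycd.

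Thioesterases release free fatty acids from acyl-CoA. Acot13 was at 105 CPM in replicate 1 and 244 CPM in replicate 2. On annotated models it had 86 and 74 reads, and 77 further reads of replicate 2 were placed on a model of 1 base at the 3′ end of the gene, which replicate 1 did not have. Acot2 had 9 reads in replicate 1 and 1 in replicate 2, and its near-identical neighbour Acot1 had 10 and 1, so how the reads divide between them is uncertain.

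In storage and lipolysis, Pnpla2 (chr7:141455198-141460743, plus strand), the triglyceride lipase ATGL, was at 231 CPM in replicate 1 and 94.2 CPM in replicate 2. Lipe, the hormone-sensitive lipase, had 5 reads in replicate 1 and 2 in replicate 2, and Pnpla2 held 97.4% ± 0.948 of their reads. Of the perilipins, Plin5, which couples droplets to mitochondria in oxidative tissues, was at 168 CPM in replicate 1 and 71.9 CPM in replicate 2. Plin2, the widely expressed droplet coat, was at 59.4 CPM and 62.3 CPM, and Plin4 at 58.5 CPM and 22.4 CPM in replicates 1 and 2. Plin5 led the 3 perilipins in both libraries with 52.4% ± 9.10 of their reads, although in replicate 2 the exact 95% intervals of the Plin5 and Plin2 shares overlapped. Dgat1, an enzyme of triglyceride synthesis, was at 15.5 CPM in replicate 1 and 7.98 CPM in replicate 2.

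The perilipin transcripts departed from the annotation in several ways. Plin2-201 had 38 of 65 complete reads in replicate 1 and 18 of 39 in replicate 2. An unannotated combination of known sites had 23 and 18 (40.8% ± 7.62): it leaves the last exon of Plin2-201 after 291 of its 840 bases and joins an exon of 905 bases at chr4:86647675-86648579 on the minus strand, 7986 bases beyond the end of Plin2-201. That junction is listed in the annotation for the short transcript Plin2-208. Read in the frame of Plin2-201, both models encode 425 codons, share 399 of them and differ in the last 26. The bases after the junction, the point where the coding sequences part, are in capitals.
Plin2-201, continued exon: cctctcaactggctgGTAGGTCCCTTTTAT
Plin2 model with the distant last exon: cctctcaactggctgATGCTTGACTTCCCT
Plin4 had 0 reads on annotated models in either library. Of its complete reads, 11 of 16 in replicate 1 and 1 of 2 in replicate 2 kept as exon the 594 bases at chr17:56105523-56106116 that the annotation gives as an intron, and 0 reads spliced it out. Plin5 began at its upstream first exon in 130 of 158 complete reads in replicate 1 and 30 of 37 in replicate 2, and at an exon 298 bases downstream in 28 and 7, with the same coding sequence. In Plin5 both starts thus recurred at like shares, 81.7% ± 0.847 and 18.3% ± 0.847.

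Ucp3 (chr7:100472990-100486432, plus strand), the uncoupling protein of skeletal muscle, was at 147 CPM in replicate 1 and 63.9 CPM in replicate 2. Ucp2, the widely expressed relative, was at 30.1 CPM and 22.4 CPM. Ucp3 held 78.5% ± 6.30 of their reads, and Ucp1, the brown fat form, had 0 reads.

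Over all members, 85.0% of the reads in replicate 1 and 79.6% in replicate 2 were on annotated models, against 71.8% and 71.7% over all annotated genes. Partial matches to an annotated model made up 9.67% and 12.7% of the members' reads, and most of these kept the 3′ end of the transcript (7.78% and 10.1%). New combinations of known splice sites held 2.09% and 1.73%, models with a new splice site 2.14% and 1.89%, and reads that overlap a gene without following its splicing 1.10% and 4.11%. The share on annotated models ranged widely. Cd36 had 45.5% and 25.0%, Fabp4 24.8% and 13.1%, and Acadl 80.5% and 55.6% in replicates 1 and 2, where a further 39 and 42 Acadl reads lay in the last exon alone.

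**Figure D3:**
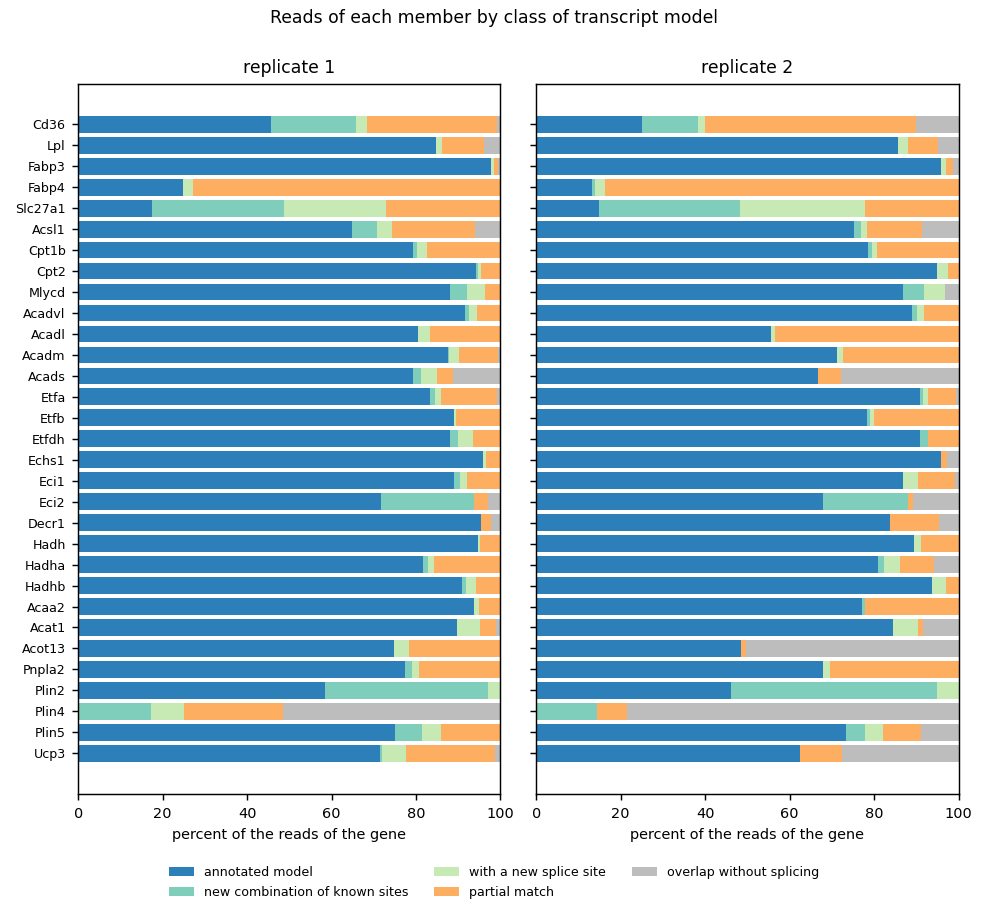
Percent of the reads of each member by class of transcript model in replicate 1 and replicate 2, for members with at least 50 reads over both libraries. Annotated models dominate in most members. Partial matches lead in Fabp4 and, in replicate 2, in Cd36. New combinations of known sites are the largest class in Slc27a1 and, in replicate 2, about as many as annotated ones in Plin2. Reads outside the splicing pattern lead in Plin4 and, in replicate 2, are about as many as annotated ones in Acot13.

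A single transcript model carried most of the complete reads of most members. Of the 20 members with at least 50 complete reads in each library, all were led by an annotated model and 17 had a leading share of at least 90%, with a median of 96.5%. Over all 1044 genes at that depth, 717 had a leading share of at least 90% and the median was 95.5%. Acsl1, Hadhb and Eci2 were the exceptions. These shares are of the reads on complete models. When partial and unspliced reads were counted too, 3 of the 20 members, Fabp3, Echs1 and Hadh, kept a leading share of at least 90%, and the median was 85.2%. Acadl-201 then held 68.0% and Acot13-201 61.6%, and in replicate 2 Acot13-201 was not the leading model. The recount with partial and unspliced reads was not made over all genes, so the fall cannot be set against theirs. The test of model shares between the libraries (Fisher's exact, chi-square or permutation test, two-sided, Benjamini-Hochberg adjustment) called 0 of these 20 members and 3.64% of all 961 genes tested, and 0 of the 20 had an unadjusted p under 0.05. A p that misses the threshold does not show that shares were equal.

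The read shares of the genes themselves differed more between the libraries. The comparison sets these libraries, not conditions, against each other, gene by gene, with a two-sided Fisher's exact test on its reads and all other reads of both libraries. The p-values were adjusted by Benjamini and Hochberg's method for all genes that had 10 reads or more, and they treat reads as independent, which cannot be checked without molecular identifiers. The test called 20 of the 42 members tested (Acsl3 and Lipe had fewer reads), while 13.5% of all 7955 genes were called. Of the 20, 16 had a higher share in replicate 1 (6.89% of all genes) and 4 in replicate 2 (6.56% of all genes). The median log2 ratio, replicate 1 over replicate 2, was 0.55 over the members and 0.24 over all genes. Genes with more reads were called more often. With at least 50 reads, 21 of 31 members were called (17 higher in replicate 1 and 4 in replicate 2), against 33.2% of all 3271 genes (18.1% and 15.1%). Scaling the libraries by TMM lowered the median log2 ratio of all genes to 0.07 and called 18 members, 14 higher in replicate 1 and 4 in replicate 2, against 11.7% of all genes, of which 3.53% were higher in replicate 1 and 8.13% in replicate 2.

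Higher in replicate 1 were a pair of lipases, a pair of perilipins, Ucp3 and enzymes of entry and oxidation. Pnpla2 had a log2 ratio of 1.29 ± 0.21 (counting SE; adjusted p = 1.05e-09, Fisher's exact test), followed by Plin5 at 1.21 ± 0.24, Ucp3 at 1.19 ± 0.25, Cpt2 at 1.15 ± 0.26 and Lpl at 1.04 ± 0.18. The adjusted p was 1.2e-06 for Plin5, 1.17e-05 for Ucp3, 4.04e-05 for Cpt2 and 2.2e-08 for Lpl. Plin4, at 1.35 ± 0.42, rested on 64 and 14 reads (adjusted p = 0.00666). Hadh, Etfdh, Hadha, Hadhb, Acaa2, Acadvl, Mlycd, Acadm, Etfa and Acadl lay between 0.41 and 0.83. Higher in replicate 2 were Acot13 at -1.22 ± 0.18, Fabp4 at -0.86 ± 0.18, Etfb at -0.34 ± 0.11 and Fabp3 at -0.24 ± 0.06. Their adjusted p was 3.52e-10 for Acot13, 5.07e-05 for Fabp4, 0.0176 for Etfb and 2.45e-04 for Fabp3. Cpt1b (0.39 ± 0.18), Acsl1 (0.47 ± 0.21), Eci1 (-0.08 ± 0.17), Cd36 (0.22 ± 0.23) and Plin2 (-0.08 ± 0.29) did not pass the threshold. Without the reads that ignore the splicing, Acot13 was at -0.24 (adjusted p = 0.553) and not called, and on annotated models alone Fabp4 was at 0.021 (adjusted p = 1). Fibroblast markers were also higher in replicate 1, with 4 of 6 called. Of the fast fibre markers 7 of 7 were called, 4 higher in replicate 1 and 3 in replicate 2. Of the slow or oxidative ones 5 of 6 were called, 2 and 3, while over all genes 13.5% were called. The part of any of these cells or fibres in the differences was not tested.

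**Figure D4:**
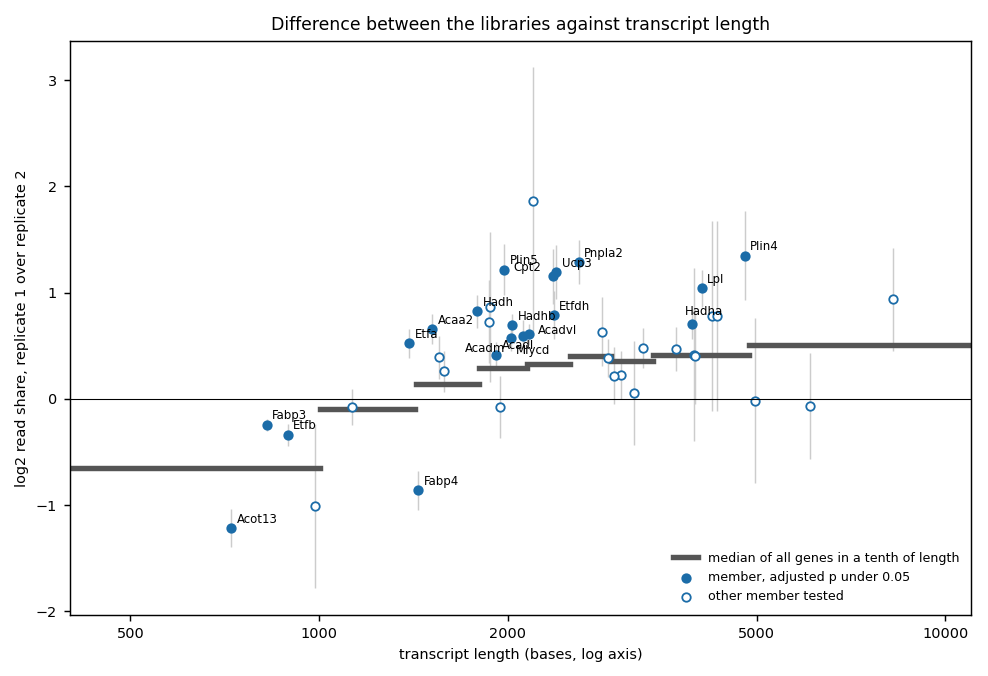
Log2 ratio of the read share, replicate 1 over replicate 2, of each member tested against transcript length on a log axis, with counting standard errors; filled points have an adjusted p under 0.05 and grey bars are the medians of all genes in each of 10 classes of length. The medians climb with length, Fabp3 and Etfb lie above the median of their class although below 0, and Pnpla2, Plin5, Ucp3 and Cpt2 lie well above theirs.

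Transcript length moved with part of this pattern. Of the members, 30 lay above the median log2 ratio of all genes of their class of length and 11 below it, by a median of 0.28. Each gene was also tested against the summed reads of its own class of length. The most abundant genes of a class weigh most in such a sum, so the shift applied can depart from the class median. In this test 16 of 42 members were called, 14 higher in replicate 1 and 2 in replicate 2, against 7.96% of all 7878 genes (3.38% and 4.58%). Fabp3 and Etfb then changed direction and were higher in replicate 1, at a log2 ratio of 0.45 and 0.36. Acot13 remained higher in replicate 2, at -0.52 (adjusted p = 0.0499), and Fabp4 was called in the same direction as before. The class of Fabp4 came from a mean length of 1439 bases, which includes the unspliced model Fabp4-202 of 4231 bases (4 and 6 reads). Fabp4-201 alone, at 896 bases, lies in the shortest class (up to 1002 bases), and Fabp4 was not tested against that class. Pnpla2 stood at 1.18, Plin5 at 1.07, Ucp3 at 0.91 and Cpt2 at 0.87, all of them called. Hadha, at 0.10, Acadl, at 0.27, Etfdh, at 0.51, and Plin4, at 0.96, were no longer called. The loss came with a ratio near 0 in Hadha but not in Plin4 or Etfdh. Set against the class medians instead, Hadha lay 0.29 above its own and Pnpla2 0.88 above. With the same adjustment and at least 50 reads, an alternative chosen after seeing the data, 16 of 31 members were called, 14 higher in replicate 1 and 2 in replicate 2, against 20.4% of all 3263 genes (9.53% and 10.9%). These 10 members, Acaa2, Acadm, Acadvl, Cpt2, Hadh, Hadhb, Lpl, Plin5, Pnpla2 and Ucp3, were called higher in replicate 1 in that first test and under all 9 alternatives tried. How many of all genes were called in every setting was not counted, so this number has no background share beside it.

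A wider list of 59 other genes of fatty acid metabolism was measured for comparison. Of these, 52 were detected, 45 in both libraries, and 7 were at 0: Fabp1, Fabp2, Slc27a2, Slc27a5, Slc27a6, Bdh1 and Ucp1. Pdk4, the kinase that restrains glucose oxidation, stood at 1578 CPM in replicate 1, the highest of the list there, and at 433 CPM in replicate 2, where Esrra and Fitm1 were higher. Crat, the carnitine acetyltransferase, stood at 645 CPM and 358 CPM, Fitm1, a muscle protein of lipid droplet formation, at 386 CPM and 445 CPM, and the isomerase Ech1 at 339 CPM and 235 CPM. Esrra, a nuclear receptor that acts on oxidative genes, differed widely, at 111 CPM in replicate 1 and 714 CPM in replicate 2. Of the 36 tested, 7 were called, against 13.5% of all 7955 genes. Pdk4, Crat, Ech1, Mgll, Plin3 and Angptl4 were higher in replicate 1, and Esrra was higher in replicate 2 (Plin3 and Angptl4 are named here after their values were seen). Dgat2, the other triglyceride synthase, was at 103 CPM and 63.9 CPM in replicates 1 and 2, above Dgat1 in both.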

How the data were processed

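Whole-number read counts for each transcript model, with an annotation of the models, are what the authors deposited per library; these deposited counts were used as they stand, the other columns serving as names, classes and lengths per the file headers. An aligner is not named in the labels or headers read here. The build is mm10 per the labels, the gene annotation GENCODE M21 per a deposited description, and the models carry attribute names of the program TALON per the file headers. Spike-ins were removed and reads of all models of a gene summed. Complete models are annotated, new combinations of known splice sites, or models with a new site; shares of models are of complete reads unless said otherwise. A gene's length is the mean over its complete models, weighted by reads.

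The members, lists and tests were chosen with earlier results of these data known. All members are named; models are named where a gene had at least 50 complete reads in each library and the model at least 5% in both; other pathway genes are named from 50 CPM. Levels were compared with Fisher's exact test at an adjusted p of 0.05, and model shares with Fisher's exact, chi-square or permutation tests (100000 draws). With 1 group no count model could be fitted between conditions. The scripts were tested on simulated data. Scale factors came from R 4.3.3 with edgeR 4.0.16 and DESeq2 1.42.0. Tests and plots used scipy 1.17.1, statsmodels 0.14.6, numpy 2.4.6, pandas 2.3.3 and matplotlib 3.10.9 under Python 3.11.15. Promoter windows are RefSeq's (GRCm38.p6), and junction bases come from GENCODE M21 transcripts. Alternatives were TMM and median-of-ratios scaling, length adjustment, other read minimums, other model classes, thinning, and leaving out each replicate.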

Additional observations from a re-analysis of the deposited data

Results flagged for a closer look

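Reads on the opposite strand of a member, which the comparisons did not use, were above the limit of 3 reads in both libraries at 5 genes. Antisense reads numbered 9 in replicate 1 and 17 in replicate 2 at Acot2, whose sense reads were 9 and 1, and 7 and 21 at Acsl4, whose sense reads were 9 and 5. At Cd36 there were 6 and 4, at Acsl6 4 and 4, and at Hadhb 7 and 4, each fewer than the sense reads. The antisense reads at Acot2 all lay at chr12:83993259-83993873 in both libraries. How the strand was assigned to single-exon reads was not tested.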

How the results depend on the processing

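No paired analysis was possible because the series holds 1 group. The count of members called between the libraries was 20 and ranged from 16 to 21 over 9 alternatives (18 with TMM and 16 with median-of-ratios size factors, against 11.7% of all genes in both; 16 with the length adjustment, against 7.96%; 16 of 36 with annotated models alone, against 12.7%; 20 without reads that ignore the splicing, against 13.1%; 18 of 39 after thinning replicate 1, against 838 of all 6971 genes). Without a replicate this test has no value, and the members' share of reads ranged from 0.711% to 0.880%. Acadl and Etfa were not called under either scaling, nor Etfdh and Mlycd under median-of-ratios size factors, and Etfb and Plin4 were lost by thinning. Differing model shares were found in 0 of 20 members with at least 50 complete reads, 0 of 28 with at least 20 reads (1 with an unadjusted p under 0.05), against 2.42% of all genes, and 0 of 20 with models joined by intron chain, against 1.66%. The leading model's share moved by more than its SD in 18 of 20 members when partial and unspliced reads were counted. Reversed were Fabp3, at a log2 ratio of 0.45, and Etfb, at 0.36, under both length adjustments, and Fabp4 with annotated models alone, at 0.021 (adjusted p = 1). Acot13 was not called with annotated models alone or without reads that ignore the splicing. With annotated models alone the members held 0.939% of reads. The share that the leading gene held of the reads of its family of related genes moved too. With annotated models alone this family share was 97.9% for Fabp3, 59.5% for Slc27a1, 81.6% for Acsl1 and 97.6% for Cpt1b. It was 47.5% for Acadvl, 60.3% for Eci1, 71.6% for Plin5 and 66.4% for Hadhb. Without reads that ignore the splicing, Hadhb held 64.2% of the reads of Hadha and Hadhb. The cause of these shifts was not tested. With 2 libraries, members under about 10 CPM rest on few reads.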
